A study of Homo sapiens with 6 samples.

Results

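The cytosolic ribosomal protein genes were taken as the autosomal protein-coding genes of GENCODE release 44 whose symbols are RPL or RPS followed by digits, together with RPLP0, RPLP1, RPLP2 and RPSA, without ribosomal S6 kinases, RPS27L, RPS19BP1 and readthrough genes. This gave 80 of 18765 autosomal protein-coding genes, of which 40 were large subunit genes, 30 small subunit genes, 3 stalk genes and 7 paralogs. At least 1 accessible region lay within 2 kb of a start site in 79 of them, and in 14968 of all these genes. The 79 genes had 89 promoter regions among 108542 regions in all.

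Accessible chromatin was measured by ATAC-seq, in which the Tn5 transposase cuts open DNA, in EndoC-βH3, a human pancreatic beta cell line labelled as wild type. Nuclei of 100000 cells went into each library. The 3 senescent libraries came from cells given 4-hydroxytamoxifen (4-OHT) for 3 weeks, which in this line removes the floxed immortalising transgenes, and the 3 non-senescent libraries from control cells that still carried them. All 6 libraries are of 1 line, and loss of the transgenes, exposure to 4-OHT and arrest cannot be told apart in it. The only level used here was the mean signal of each region over all 6 libraries, as the authors computed it from read counts scaled by size factors. It has no spread over libraries and no value per group, so nothing below compares senescent with non-senescent cells, and the table gives no depth per library. As a check of the label, all 9 beta cell markers had a promoter region, with mean signals from 183.5 (IAPP) to 7894 (INS, insulin). So had 14889 of 18685 genes other than ribosomal protein genes, so presence of a region alone says little. The median mean signal of the 9 was 640.5, below the 856.7 of those genes. Their median signal per kb of region was 1114, above the 695.1 of those genes. Of the fibroblast and leukocyte markers, COL3A1, PTPRC and CD3E had none, and the others ranged from 17.6 (COL1A2) to 141.6 (COL1A1).

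Ribosomal proteins are the protein part of the ribosome, the particle that translates mRNA; large subunit proteins surround the peptide-forming centre, small subunit proteins surround the decoding centre, and the stalk proteins recruit translation factors. Their genes are transcribed in nearly every cell, and in a secretory cell such as the beta cell the ribosomes they build make insulin. Their mRNAs are the classical 5′ TOP mRNAs, which begin with a C followed by pyrimidines, and mTORC1 signalling controls the translation of such mRNAs through this start.

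The start sites themselves are shown here because the letters at the first transcribed base set these genes most clearly beside other promoters. Each line gives 30 bases of hg38 on the strand of the gene, from -15 to 15 around the canonical start site (MANE Select, otherwise Ensembl canonical), and the capitals mark the longest unbroken run of C and T touching the stretch within 20 bases of that site, as far as it lies in the window. The first 10 are genes with such a start, and RPL3, RPL32, RPL39L and RPL7L1 are exceptions. Where runs of equal length tie, only the first is marked. In RPL39L and RPL7L1 that run lies before the window, so tied runs within it are not in capitals.
RPL18 (chr19:48619164-48619193, minus strand): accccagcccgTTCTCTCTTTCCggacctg
RPS19 (chr19:41860240-41860269, plus strand): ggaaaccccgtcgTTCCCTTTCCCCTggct
RPS24 (chr10:78033848-78033877, plus strand): cggcgaatcgtggTTCTCTTTTCCTCCTTg
RPL34 (chr4:108620561-108620590, plus strand): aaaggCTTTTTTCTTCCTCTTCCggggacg
RPL5 (chr1:92832025-92832054, plus strand): cgcaagggctgtggCCCTTTTCCCaccccc
RPL11 (chr1:23691791-23691820, plus strand): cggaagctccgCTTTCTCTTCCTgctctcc
RPL7A (chr9:133348203-133348232, plus strand): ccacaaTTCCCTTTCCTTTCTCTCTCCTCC
RPLP0 (chr12:120201097-120201126, minus strand): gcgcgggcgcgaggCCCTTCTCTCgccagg
RPLP2 (chr11:809952-809981, plus strand): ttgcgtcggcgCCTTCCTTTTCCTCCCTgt
RPS27A (chr2:55232673-55232702, plus strand): tgcgcggcgTTCTTCCTTTTCgatccgcca
RPL3 (chr22:39319609-39319638, minus strand): gtaaggccgaccggCCTCTaccggcgggat
RPL32 (chr3:12841551-12841580, minus strand): gggttacgacccatcagcccttgcgcgcca
RPL39L (chr3:187139482-187139511, minus strand): gcatccggggaaatcgcggtcttagcatcc
RPL7L1 (chr6:42879601-42879630, plus strand): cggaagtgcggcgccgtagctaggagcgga

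The canonical start was a C followed by 4 pyrimidines in 56 of the 79 genes (70.9%, 95% Wilson interval 60.1 to 79.7%, which covers counting error only). The share was 4.66% among 14889 other genes with a promoter region and 4.81% among the same genes weighted to like mean signal. A C at the first base was present in 61 genes (77.2%), against 10.0% of the others. A pyrimidine run of at least 8 bases within 20 bases of the site was present in 70 genes (88.6%, 79.7 to 93.9%), against 19.0% of all others and 18.5% of those of like mean signal. The median longest run was 11 bases in the ribosomal protein genes and 5 in the others, and the longest, 25 bases, was in RPL7A. The word CTTTC stood within 20 bases of the site in 38 genes (48.1%, against 4.37% of the others), and CTTTT in 26 (32.9%, against 3.08%). These shares are descriptions of the reference sequence, with no test over genes, since genes are not replicates.

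The start differed by role. A C followed by 4 pyrimidines began 28 of 40 large subunit genes, 24 of 30 small subunit genes and 3 of 3 stalk genes, but 1 of the 6 paralogs with a region. Paralogs are tissue-restricted or second copies of a subunit gene, and RPL39L, RPL3L, RPL7L1 and RPL26L1 lacked a run of 8, as did other genes such as RPL12, RPL3, RPL36 and RPS3A. Mitochondrial ribosomal proteins, which build the separate ribosome of the mitochondrion, had such a start in 5 of 78 genes (6.41%), and ribosome biogenesis factors in 2 of 12. Of 13 other genes known for TOP mRNAs, most but not all of them translation factors, 11 had it. That list was chosen because its mRNAs are known for this start, so its high share follows largely from the choice. RPL32 had no pyrimidine at the annotated base, and its run of 17 bases began just beyond the window shown. At RefSeq start sites, available for 63 genes of which 56 agreed to the base, 83.9% of 62 genes had a run of 8 or more, against 19.5% of 11820 others.

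**Figure D1:**
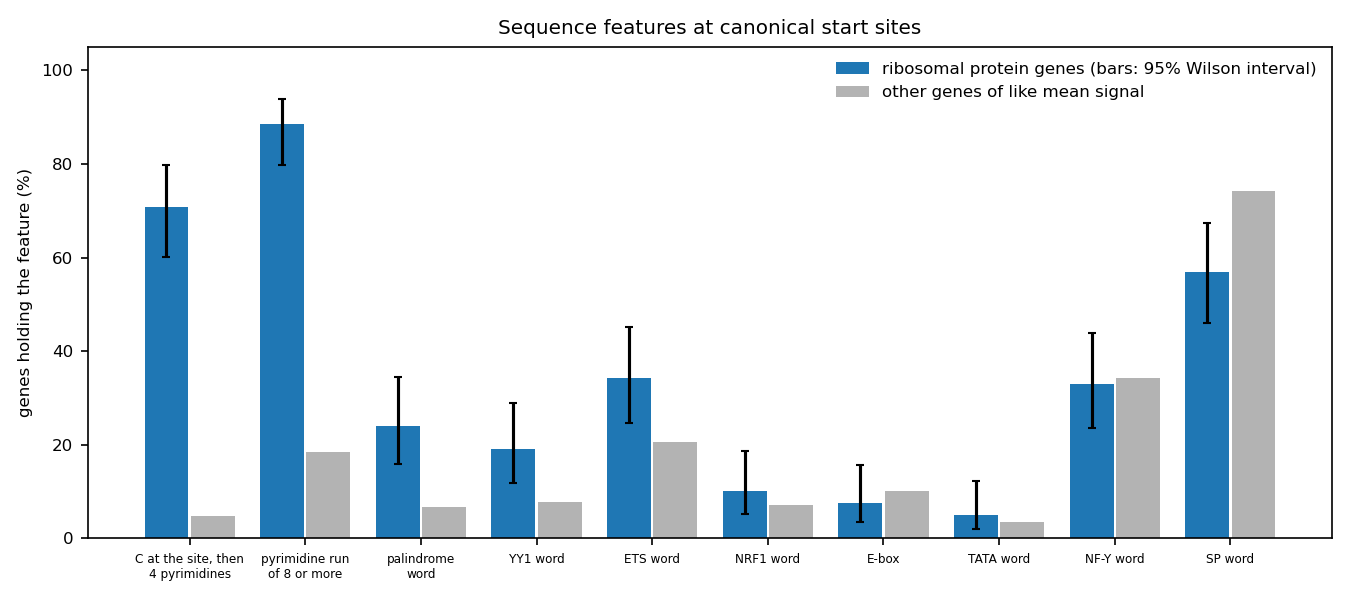
Percent of genes holding each sequence feature at the canonical start site (vertical axis), for 79 ribosomal protein genes (blue, with 95% Wilson intervals) and for other genes weighted to like mean signal (grey). The pyrimidine features stand at 70.9 and 88.6% against 4.81 and 18.5%, and the SP word is the feature with the widest gap in the other direction (57.0 against 74.3%).

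Upstream of the start, 8 short words were searched from 250 bases before to 50 bases after the canonical site, on both strands except TATAAA, which was read on the sense strand. They were CCGGAAG (ETS factors such as GABPA), GGGCGG (SP and KLF factors), AAGATGG (YY1), CACGTG (the E-box of MYC and USF factors), GCATGCG (NRF1), TCTCGCG (1 side of a palindromic promoter element), CCAAT (NF-Y) and TATAAA (bound by the general factor TBP). The ETS, NRF1 and TCTCGCG words can overlap their own reverse complements, and a match is a description of letters and not of a bound site. Stretches from -100 to -1 are printed for 5 genes to show the arrangements met, with every match in capitals.
RPS19 (chr19:41860155-41860254, plus strand): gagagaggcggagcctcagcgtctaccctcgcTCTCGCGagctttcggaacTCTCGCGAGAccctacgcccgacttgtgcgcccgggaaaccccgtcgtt
RPS14 (chr5:150449740-150449839, minus strand): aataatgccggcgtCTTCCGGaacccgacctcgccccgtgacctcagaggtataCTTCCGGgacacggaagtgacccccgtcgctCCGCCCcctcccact
RPL10A (chr6:35468301-35468400, plus strand): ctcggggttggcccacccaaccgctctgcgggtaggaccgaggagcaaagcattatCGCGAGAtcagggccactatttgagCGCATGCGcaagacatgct
RPL3 (chr22:39319624-39319723, minus strand): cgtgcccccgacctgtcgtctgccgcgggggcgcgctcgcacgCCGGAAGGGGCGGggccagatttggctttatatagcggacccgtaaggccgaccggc
RPL4 (chr15:66504856-66504955, minus strand): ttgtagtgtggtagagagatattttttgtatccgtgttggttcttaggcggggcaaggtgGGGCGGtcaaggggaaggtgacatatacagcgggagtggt

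RPS19, whose product is the protein most often altered in Diamond-Blackfan anaemia, held the TCTCGCG word on both sides of a palindrome and again further upstream. RPS14 held 2 ETS words and an SP word, RPL10A a TCTCGCG and an NRF1 word, and RPL3 an ETS word that runs directly into an SP word. RPL4 held a single SP word in this stretch.

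The ribosomal protein genes held the TCTCGCG word most often relative to other genes. It was in 19 of 79 (24.1%, 16.0 to 34.5%), against 6.03% of all others and 6.65% of those of like mean signal, and in 5.13% of mitochondrial ribosomal protein genes. Of its 26 matches, 20 (76.9%) lay within 100 bases before the site, against 48.3% of the matches in other genes. The ETS word was in 27 genes (34.2%, 24.7 to 45.2%; others of like mean signal 20.6%), and in 41.0% of mitochondrial ribosomal protein genes, so that both kinds of ribosome had it more often than other promoters. The YY1 word was in 15 genes (19.0%, 11.9 to 29.0%; 7.66%), and in 32.1% of the mitochondrial ones. With the start site furthest upstream in place of the canonical one, the share was 11.4%. The share of other genes at that site is not given, so whether the gap to them held was not tested. In 8 of the 15 genes the ATG in the YY1 word was the annotated start codon, among them RPL13A, RPL22L1, RPL23A, RPL7A, RPS15, RPS29 and RPS3. Of its 15 matches, 14 lay after the start site, with a median position of 19. Among other genes the word held the start codon in 332 of 1001. A start codon lay within 50 bases of the site in 30 of the 79 ribosomal protein genes and 15.4% of others, and the word stood outside the start codon in 7 genes (8.86%), against 4.49%. The part of the start codon in the share of the YY1 word was not tested.

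The SP word went the other way, in 45 genes (57.0%, 46.0 to 67.3%) against 74.3% of others of like mean signal. Its share was also low in mitochondrial ribosomal protein genes (60.3%) and ribosome biogenesis factors (58.3%). The low share was thus not particular to cytosolic ribosomal protein genes. In the other TOP mRNA genes it was 76.9%. The comparison was not matched for GC content. The NRF1 word (8 genes, 10.1%, 5.22 to 18.7%; 7.20%), the E-box (6 genes, 7.59%, 3.53 to 15.6%; 10.1%), the CCAAT word (26 genes, 32.9%, 23.6 to 43.9%; 34.2%) and TATAAA (4 genes, 5.06%, 1.99 to 12.3%; 3.55%) had intervals that included the share of the other genes. These intervals cover counting error only and are no test, since genes are not replicates. CCAAT was in 42.5% of large and 16.7% of small subunit genes. The TATAAA matches, in RPL22L1, RPLP0, RPS2 and RPS28, all began between -30 and -26. None of the 8 words was in RPL37A, RPS20, RPS26, RPS27 and RPS27A (6.33%, against 10.5% of other genes).

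**Figure D2:**
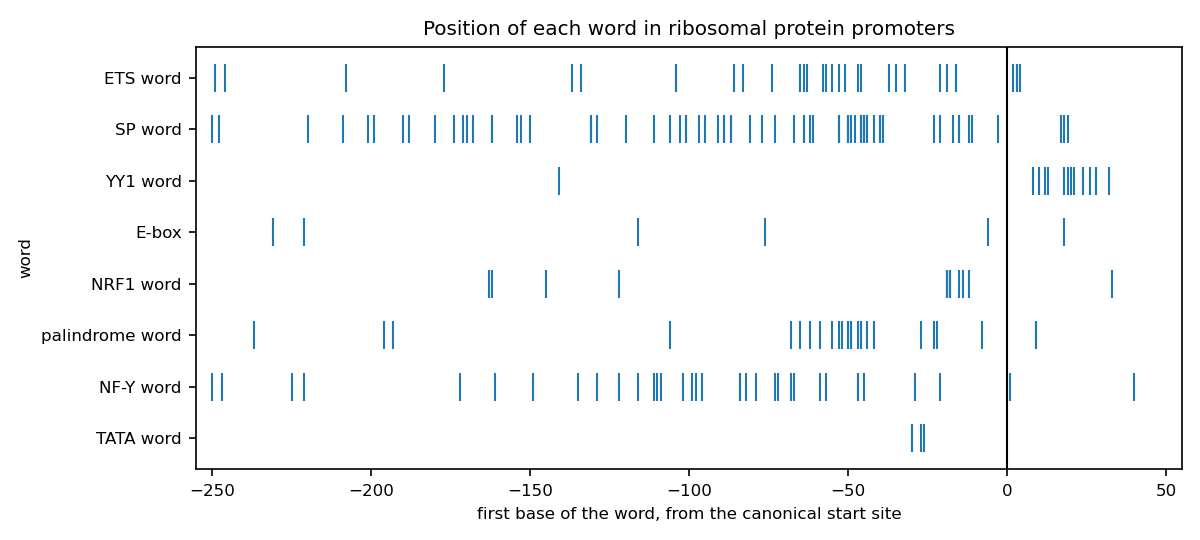
Position of the first base of every word match in the 79 ribosomal protein promoters (horizontal axis, bases from the canonical start site; 1 row per word). TATA matches lie between -30 and -26, YY1 matches after the site with 1 exception at -141, and palindrome (TCTCGCG) matches mostly within 100 bases before it.

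The promoters of these genes were open, without standing at the top of the table. A region covered the canonical start site itself in 78 of the 80 genes (97.5%), against 67.6% of other autosomal protein-coding genes. The exceptions were both paralogs: RPL10L, a retrogene known for expression in the testis, had no region at all, and RPL3L, known for expression in muscle, had only a region over the start of NDUFB10, whose own start lay 4849 bases away. The strongest promoter region of each gene had a median mean signal of 956.7, with a range from 273.8 (RPS15) to 2169 (RPL36), against 856.7 for the other genes. None of the 79 fell in the uppermost of 20 equal bins of mean signal, and 18 fell in the 5 uppermost.

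Levels were compared between genes per length, as signal density, the mean signal per kb of region. The median density was 843.2 (quartiles 569.4 and 1219), against 695.1 (366.2 and 1137) for all others and 792.7 for others of like mean signal. Density is mean signal divided by width. At like mean signal, a difference in density therefore mainly restates the difference in width given below. Density lay above the median of the others in 53 of 79 genes, in their upper quartile in 23 and in their top 10% in 6, and in their lower quartile in 4. The ribosomal protein genes thus lay mostly between the middle and the upper part of all open promoters, with the median gene at percentile 59.9 (range 19.0 to 98.0).

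**Figure D3:**
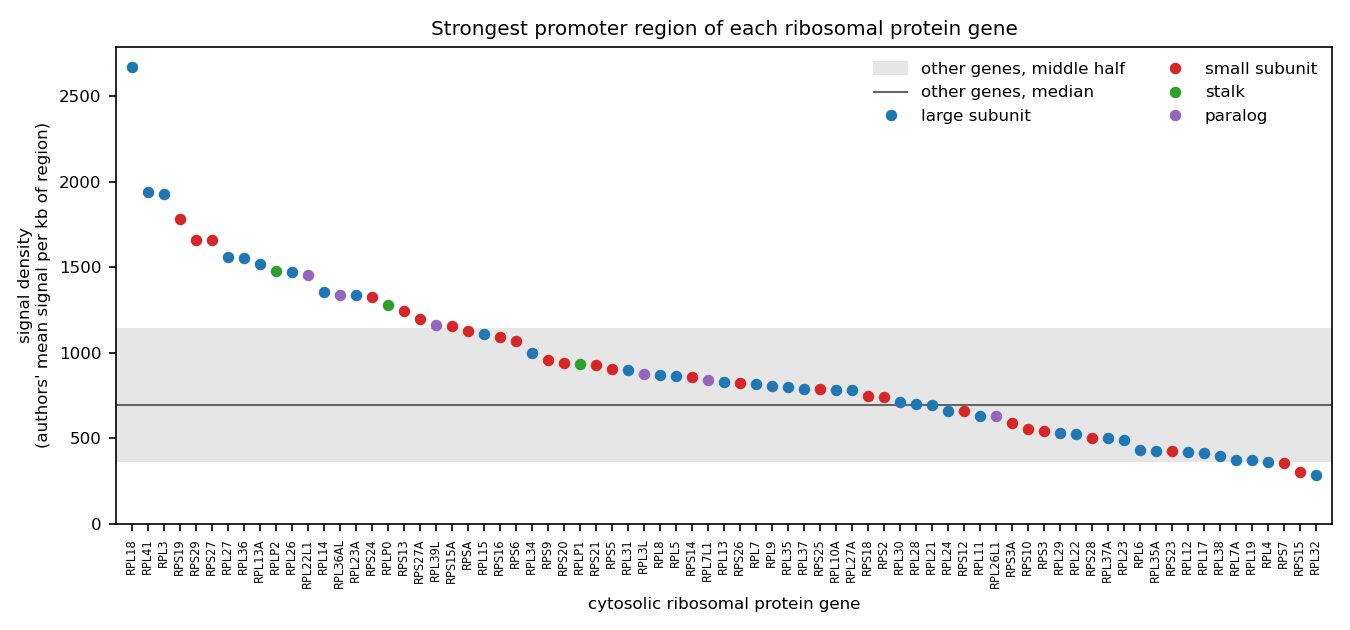
Signal density of the strongest promoter region (vertical axis, authors' mean signal per kb) of 75 ribosomal protein genes, ordered from RPL18 (2668) to RPL32 (285.6) and coloured by role. The line is the median of other genes (695.1) and the band runs between their quartiles (366.2 and 1137).

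Density varied 9.34-fold among the 79 genes. Among the highest were RPL18 (2668 per kb), RPL41 (1940), RPL3 (1928), RPS19 (1785), RPS29 (1661), RPS27 (1660), RPL27 (1557) and RPL36 (1552). RPL18 had 1 region, chr19:48618916-48619693, of 777 bases, shared with SPHK2, with a mean signal of 2073. The 5 lowest were RPL32 (285.6), RPS15 (300.6), RPS7 (355.1), RPL4 (360.0) and RPL19 (372.5). RPL32 lay at chr3:12840715-12842081, with a mean signal of 390.2 over 1366 bases. Without a spread over libraries, the order of neighbours in this list has no error attached to it.

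In 5 genes the strongest region within reach was not the one over the canonical start site. For RPL36 it lay at the shared start of HSD11B1L and MICOS13, and its own region had a density of 1051. For RPL41 it lay at ZC3H10, and its own had 753.1. For RPL6 it lay at PTPN11, and its own had 499.5. For RPL3 it lay 1569 bases downstream of the start by its centre, over introns (83.1%) and exons (16.9%) of RPL3, with a GC content of 46.8%, and its own had 931.8. RPL3L has been described above. Over the regions that hold the canonical start alone, the median density was 827.9, against 725.5 for other genes and 771.9 for those of like mean signal.

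By role, the median density was 784.9 in 40 large subunit genes, 916.6 in 30 small subunit genes and 1021 in 6 paralogs. The stalk genes had 1282 (RPLP0), 934.7 (RPLP1) and 1479 (RPLP2). RPL5 and RPL11, which with the 5S rRNA bind MDM2 when ribosome assembly fails, had 862.2 and 630.8. RPS27A, made as a fusion with ubiquitin, had 1196, and RPSA, also known as a laminin receptor, 1128. Of the paralogs, RPL22L1 had 1455, RPL36AL 1336, RPL39L 1164, RPL7L1 843.2 and RPL26L1 630.7. The 877.4 of RPL3L belongs to the region over the start of NDUFB10, and RPL10L had no value. The 18 Diamond-Blackfan anaemia genes had a median of 932.5. For comparison, it was 768.1 in 78 mitochondrial ribosomal protein genes, 1061 in the 13 other TOP mRNA genes and 732.9 in 12 ribosome biogenesis factors. Density was 866.9 in genes with the C and pyrimidine start and 806.8 in those without.

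The 12 genes on chromosome 19, the chromosome with most of them, had a median density of 1305, against 747.2 for the 1038 other genes with a promoter region there, and the 67 on other chromosomes had 815.0. The 12 ranged from 300.6 (RPS15) to 2668 (RPL18). With the region over the canonical start in every gene, which lowers RPL36, the medians were 1072 on chromosome 19, 803.7 for 66 genes elsewhere and 783.5 for 844 other genes on chromosome 19. Medians on other chromosomes lay on both sides of these, with 1108 for 9 genes on chromosome 3 and 630.8 for 5 on chromosome 1. Genes that host a small nucleolar or other noncoding RNA (31) had 781.0, and the remaining 48 had 887.9.

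The regions lay towards the upstream side of the start. The median width was 1122 bases, against 1157 for all others and 1226 for others of like mean signal, and 42 of 79 (53.2%) were narrower than the median of their own bin, where 50% is the share by construction. The widest were RPL7 (2563 bases), RPL28 (2120) and RPL12 (2051), and the narrowest RPL14 (494), RPS27 (654) and RPS24 (662). Over the canonical start, the region reached a median of 593 bases upstream and 506.5 downstream, against 561 and 634 for others of like mean signal, and the upstream arm was the longer in 47 of 78 genes (60.3%, against 43.2%). For the strongest region, the median edges were 597 and 508. They were 824 and 432.5 in ribosome biogenesis factors, 941 and 625 in the other TOP mRNA genes, and 550 and 523 in mitochondrial ribosomal protein genes. The upstream lean was thus not particular to cytosolic ribosomal protein genes. By the canonical transcript, a median of 54.3% of the strongest region lay outside the gene, 7.25% in exons and 34.8% in introns.

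**Figure D4:**
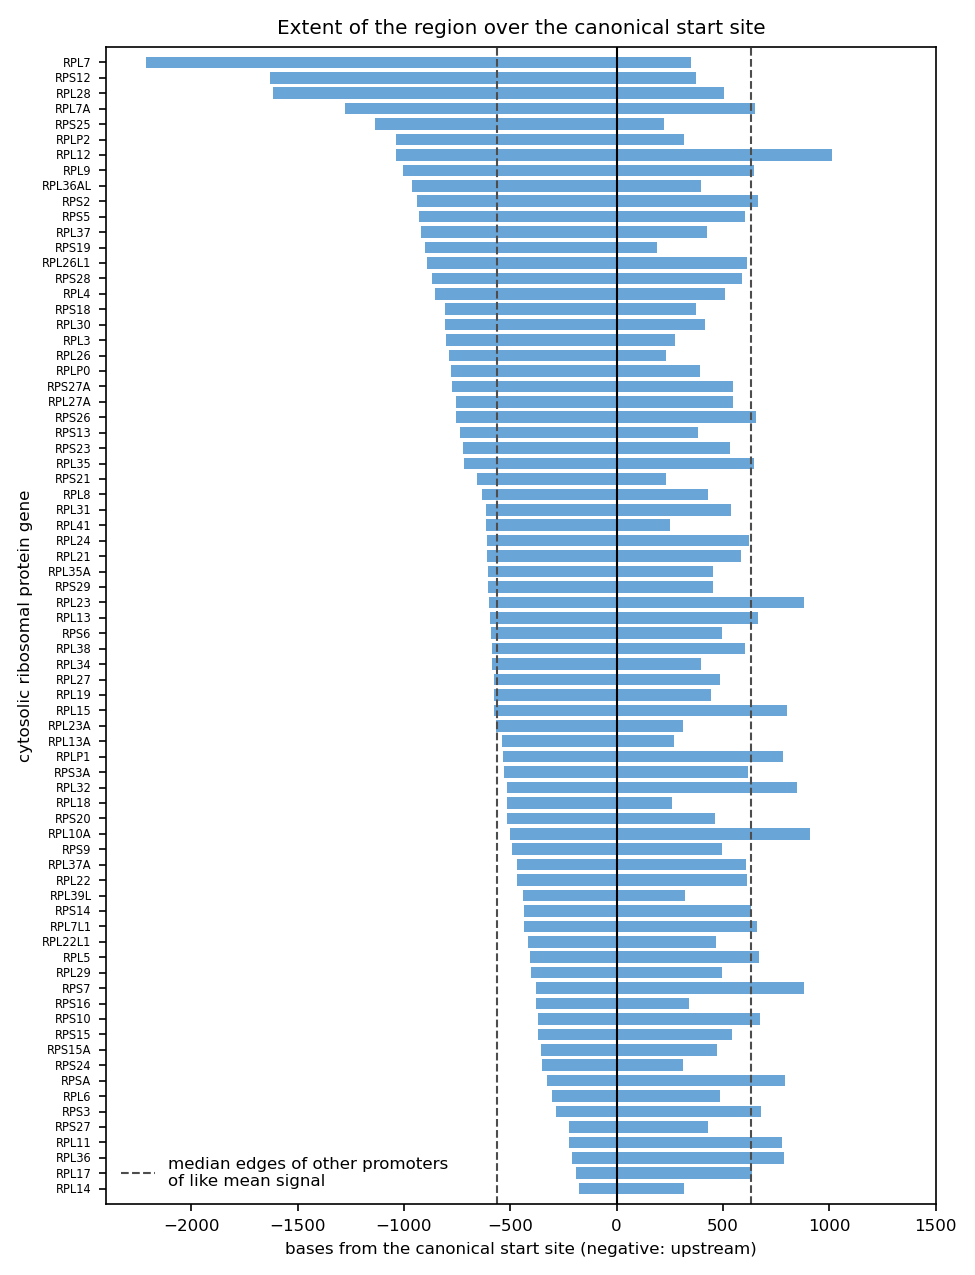
Extent of the region over the canonical start site in 74 ribosomal protein genes (bars; horizontal axis in bases from the site, negative upstream), ordered by upstream reach. Dashed lines mark the median edges of other promoters of like mean signal, 561 bases upstream and 634 downstream, and the median over all 78 ribosomal protein genes with such a region is 593 and 506.5.

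Across genes, Spearman's rho between density and width was -0.44 in the 79 ribosomal protein genes and 0.18 in 14889 others, and between mean signal and width 0.11 and 0.51. Among the 10761 other genes within the range of mean signal of the ribosomal protein genes, the values were -0.29 and 0.27, so the difference in sign for density was not present over the same range. Density is divided by width, so these values share a term, and genes are not independent replicates. The regions were also less rich in GC (59.3%, against 62.7% for like mean signal), with a ratio of observed to expected CpG of 0.786 against 0.759. In mitochondrial ribosomal protein genes these medians were 58.2% and 0.743.

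**Figure D5:**
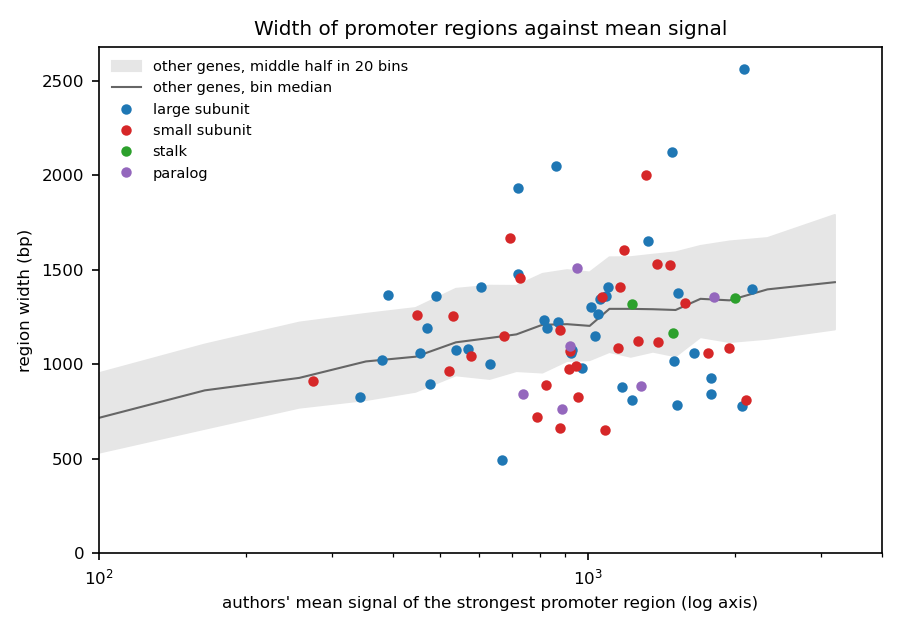
Width of the strongest promoter region (vertical axis, bases) against the authors' mean signal (horizontal log axis) for 79 ribosomal protein genes, coloured by role. The line and band give the median and quartiles of other genes in 20 bins, and 42 of the ribosomal protein genes (53.2%) lie below the median of their bin, close to the 50% of the other genes.

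Most ribosomal protein genes had a single promoter region, counted within 2 kb of any annotated start of a protein-coding transcript. The weaker regions of RPL22 and RPS29, for example, were centred at -9694 and -12343 from the canonical start. The spread of annotated starts along a gene was not matched, and its part in the count was not tested. A single region was found in 70 genes (88.6%), against 68.8% of others of like mean signal, 2 regions in 8 genes (RPL15, RPL22, RPL28, RPL3, RPL41, RPL6, RPS29 and RPS3), and 3 in RPL36 alone, against a share of 10.2% with 3 or more in the others. A single region was also found in 84.6% of mitochondrial ribosomal protein genes and 83.3% of ribosome biogenesis factors. A single region was thus not particular to cytosolic ribosomal protein genes. In the other TOP mRNA genes the share was 61.5%. The strongest region held the canonical start of another protein-coding gene in 18 cytosolic ribosomal protein genes (22.8%, 14.9 to 33.2%; others of like mean signal 19.9%). In RPL36, RPL41, RPL6 and RPL3L, counted among the 18, that region did not hold the gene's own canonical start. In 14 genes (17.7%) a protein-coding gene started on the opposite strand within 1 kb in the diverging direction, against 13.8% of the others of like mean signal. Among these pairs, the canonical starts of RPL7A and MED22 lay 87 bases apart, RPL12 and LRSAM1 104, RPS28 and NDUFA7 121, and RPL4 and ZWILCH 471. The median width was 1361 bases in the 14 diverging ribosomal protein genes and 1078 in the other 65, and 1328 and 1130 in the corresponding other genes.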

How the data were processed

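ATAC-seq libraries of EndoC-βH3 cells (3 senescent, 3 non-senescent) were processed by the authors, whose notes name Trim Galore, cutadapt, Bowtie, SAMtools, Picard, MACS2, DESeq2 and deepTools and the hg38 build. The deposited table gives for each region a mean signal, the mean over all 6 libraries of reads counted there and scaled by size factors. It also holds the fold change, its error, statistic and p-values of the authors' own comparison of the groups, which were not used. Whether coordinates count from 0 or 1 was not given in the sources used here, so a start can be off by 1; they are printed as the table gives them.

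Regions were joined to start sites of protein-coding transcripts of GENCODE 44 within 2 kb, and the region of highest mean signal represented a gene. Other genes were weighted to the numbers of ribosomal protein genes in 20 bins of mean signal. Where a region lies within 2 kb of several genes it counted for each. Shares carry 95% Wilson intervals. No test was made. Python 3.11.15, numpy 2.4.6, pandas 2.3.3, scipy 1.17.1 and matplotlib 3.10.9 were used, and the overlap, word and weighting steps were tested on simulated data. Genes were named by rule: the 10 highest and 5 lowest densities, genes without a region or with 3 or more, the 3 widest and 3 narrowest, paralogs, stalk genes, RPL5, RPL11, RPS27A, RPSA and shared regions. Other genes named, the sequences printed, the chromosome, diverging gene and start codon counts were chosen after their values were seen. Members and lists were chosen with earlier results of these data known. RefSeq start sites came from the hg38 promoter table. A few genes and sequences are not reported here by name; they count in totals and medians.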

Additional observations from a re-analysis of the deposited data

How the results depend on the processing

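Of 43 alternative settings, 37 left their value within the limits used, a factor of 1.5 for levels and the 95% Wilson interval for shares. These limits are wide. The median density of 843.2 against 695.1 for other genes differs by less than a factor of 1.5. Each setting also followed ribosomal protein genes or other genes, and not the gap between them. A value within the limits therefore does not show that a gap held. With only 100 bases before the site, GGGCGG fell to 44.3% and CCAAT to 22.8% of genes. With the start site furthest upstream, AAGATGG fell to 11.4%. For these words, the shares of other genes under the same settings are not given. The pyrimidine cut-offs below were chosen after seeing the data: a run of at least 10 gave 78.5% of ribosomal protein genes and 9.72% of other genes, and a run of at least 6 gave 92.4% and 39.3%. The shorter window holds fewer bases by construction. Other genes within the range of mean signal of the ribosomal protein genes, also chosen after seeing the data, had a rho of -0.29 between density and width, reversed from 0.18 over all others, and of 0.27 between mean signal and width, from 0.51. Without chromosome 19 the median signal density was 815.0; this setting, the region over the canonical start and the RefSeq sites were also chosen after seeing the data. No paired analysis was possible because no result comes from a test and the level used has no value per library, so there was no replicate to leave out.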
